A study of Rattus norvegicus with 2 samples.

Results

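The AP-1 family and the immediate early genes were described in the sympathetic neurons of the stellate ganglion, the ganglion whose cells innervate the heart. The list holds 10 genes, which are Jun, Junb and Jund of the Jun family, Fos, Fosb and Fosl2 of the Fos family, and Atf3, Egr1, Ier2 and Nr4a1. Of these, 9 were found by symbol among the 25395 genes with a unique name, and Ier2 was not analysed here. The list was drawn up around Jund, which was chosen by its measured rise in the SHR library, so the difference of Jund between the strains is a description and supports nothing by itself.

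Dissociated stellate ganglia were sequenced cell by cell in 1 library of Wistar rats, the normotensive strain, and 1 library of SHRs (spontaneously hypertensive rats), taken at the prehypertensive stage, all animals being males of 5 to 6 weeks by the study's methods. Both preparations are labelled with the same dissociation, 25 minutes in collagenase IV at 1 mg/ml and 30 minutes in trypsin at 2 mg/ml, then mechanical disruption. How many animals entered each library is not given in the sources used here. The authors grouped the cells, and for the neurons of each library they deposited ln(1 + m) for every gene, where m is the average over neurons of a gene's counts scaled to 10000 per cell. Values are given here as m, the mean per 10000. With 1 library per strain there is no replicate error, and neither a test nor an interval can be given for any difference. The number of neurons and the counts behind each mean are unknown. A mean over neurons cannot separate more copies per cell from more cells with the transcript.

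AP-1 is a dimeric transcription factor built from basic leucine zipper proteins. Jun proteins pair with each other or with Fos proteins, whereas Fos proteins need a Jun partner, and Atf3 and its relatives join the same network. Most of these genes are immediate early genes, whose transcription starts within minutes of depolarization, growth factor signalling or stress and needs no new protein synthesis. In neurons, Fos and Egr1 serve as readouts of recent activity, and Jun and Atf3 are known for their induction after axon injury. JunD is known as the Jun protein that many cells carry at rest.

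The promoter of Jund is printed here because Jund stood apart in the data, and that of Junb because it is the relative in the Jun family with a window in the promoter table. Each is the stretch of 250 bases directly before the start site in RefSeq (GRCr8), 5′ to 3′ on the strand of the gene. The Jund stretch is chr16:18769772-18770021, minus strand. The Junb stretch is chr19:40080876-40081125, plus strand. Capitals mark, in Jund, a full cAMP response element, an octamer, the core of a cAMP response element, a CCAAT box and an Egr site in that order, and in Junb the core of a cAMP response element, a CCAAT box and a TATA box.
Jund: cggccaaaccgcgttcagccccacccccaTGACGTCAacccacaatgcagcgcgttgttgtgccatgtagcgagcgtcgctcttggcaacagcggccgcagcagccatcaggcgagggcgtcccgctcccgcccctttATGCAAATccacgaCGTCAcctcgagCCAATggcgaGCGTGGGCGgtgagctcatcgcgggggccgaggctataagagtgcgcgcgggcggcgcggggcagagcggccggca
Junb: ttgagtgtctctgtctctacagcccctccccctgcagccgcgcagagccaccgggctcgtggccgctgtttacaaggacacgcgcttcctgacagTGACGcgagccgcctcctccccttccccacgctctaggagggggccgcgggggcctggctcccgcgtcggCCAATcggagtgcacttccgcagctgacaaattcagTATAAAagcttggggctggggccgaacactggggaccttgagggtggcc

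The libraries differed by far more in Jund than in any other member. Jund averaged 1.45 per 10000 in Wistar neurons and 10.1 in SHR neurons, 6.95 times as much. In Wistar it was the 1161st gene by level, and in SHR the 104th. Its SHR level lay next to that of Th, which encodes the rate-limiting enzyme of catecholamine synthesis, at a ratio of Jund to Th of 0.993 in SHR against 0.142 in Wistar. Jund transcripts thus lay at the level of Th in the SHR library only.

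The other Jun genes did not share this difference. Jun, the family member best known for induction by stress kinases, averaged 3.33 per 10000 in Wistar neurons and 2.56 in SHR neurons, a change of -23.1%. Junb, which is induced with Fos by many stimuli, averaged 2.71 in Wistar and 2.83 in SHR, a change of 4.20%. The order within the family turned over. In Wistar the levels ran Jun, Junb, Jund from high to low, and in SHR they ran Jund, Junb, Jun, although without replicates it cannot be said whether Jun and Junb differ within either library. Because single cell 3′ libraries count about one tag per molecule, levels of genes were compared without division by length.

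The Jun family transcripts summed to 7.49 per 10000 in Wistar and 15.4 in SHR. Without Jund, the sums were 6.04 and 5.39, so the total was larger in SHR only with Jund counted. Jund made up 19.3% of the Jun family sum in Wistar and 65.1% in SHR, while Jun went from 44.4% to 16.6% and Junb from 36.2% to 18.3%. These shares compare transcripts inside one library, so no rescaling of the libraries can change them.

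**Figure D1:**
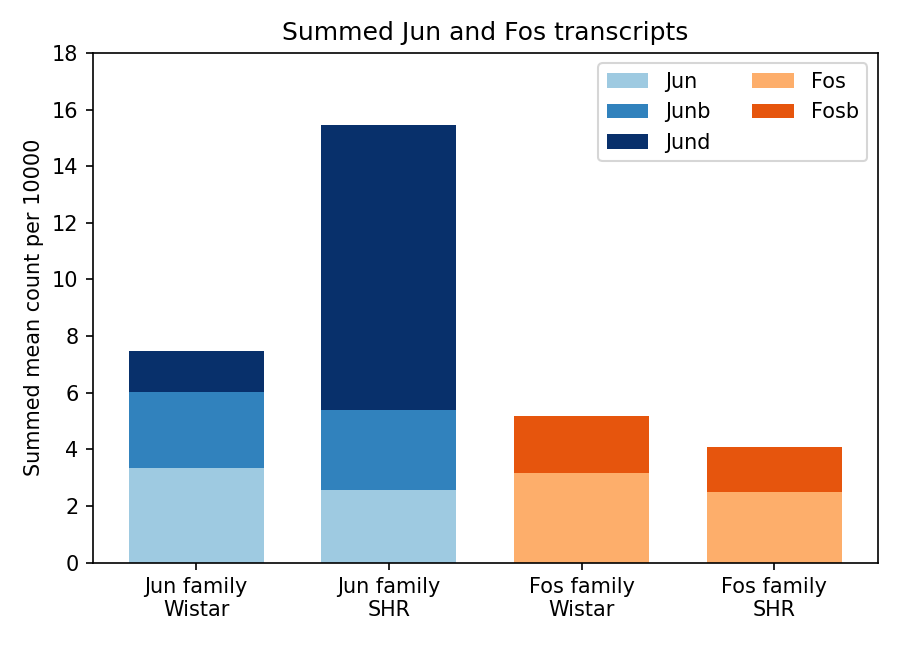
Summed mean count per 10000 of the Jun genes and of Fos and Fosb in the 1 Wistar and the 1 SHR library, with 1 coloured segment per gene. The Jund segment takes 19.3% of the Jun bar in Wistar and 65.1% in SHR, and the Fos bar is lower in SHR.

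The Fos genes, whose products require Jun partners, had lower means in SHR. Fos averaged 3.18 per 10000 in Wistar neurons and 2.48 in SHR neurons, a change of -22.1%. Fosb, the Fos relative that yields the long-lived ΔFosB protein in brain, averaged 2.00 in Wistar and 1.62 in SHR, a change of -18.8%. Fos and Fosb kept nearly the same proportion, at a ratio of 1.59 in Wistar and 1.53 in SHR. Jun moved with them, and the ratio of Jun to Fos was 1.05 in Wistar and 1.03 in SHR. Fosl2 (Fra-2) stood at 0.000174 per 10000 in Wistar neurons and was listed at 0 in SHR neurons, and Fosl1 (Fra-1), outside the 10 genes, at 0.00174 and 0.00524. Fos and Fosb therefore accounted for almost all of the Fos family transcripts that were counted in these libraries.

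Set against each other, the families shifted. The Jun sum was 1.45 times the sum of Fos, Fosb, Fosl1 and Fosl2 in Wistar and 3.76 times in SHR. With Jund left out, the ratio of Jun and Junb to the Fos family was 1.17 in Wistar and 1.31 in SHR.

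Of the members outside both families, Atf3 averaged 1.68 per 10000 in Wistar neurons and 1.78 in SHR neurons. Atf3 encodes a stress-induced member of the ATF group, and its values differed by 5.71%. Egr1, a zinc finger factor used as a marker of neuronal activity, had means of 1.48 and 1.45, a change of -1.80%. Nr4a1, the orphan nuclear receptor Nur77, had the lowest mean of the 8 members at 0.1 per 10000 or more, with 0.625 in Wistar and 0.572 in SHR, a change of -8.47%. The transcripts of these genes, as those of Fos and Jun, were present in both libraries after the same labelled dissociation. Nothing in the deposited means separates transcripts made in the animal from transcripts made during dissociation, and this was not tested.

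**Figure D2:**
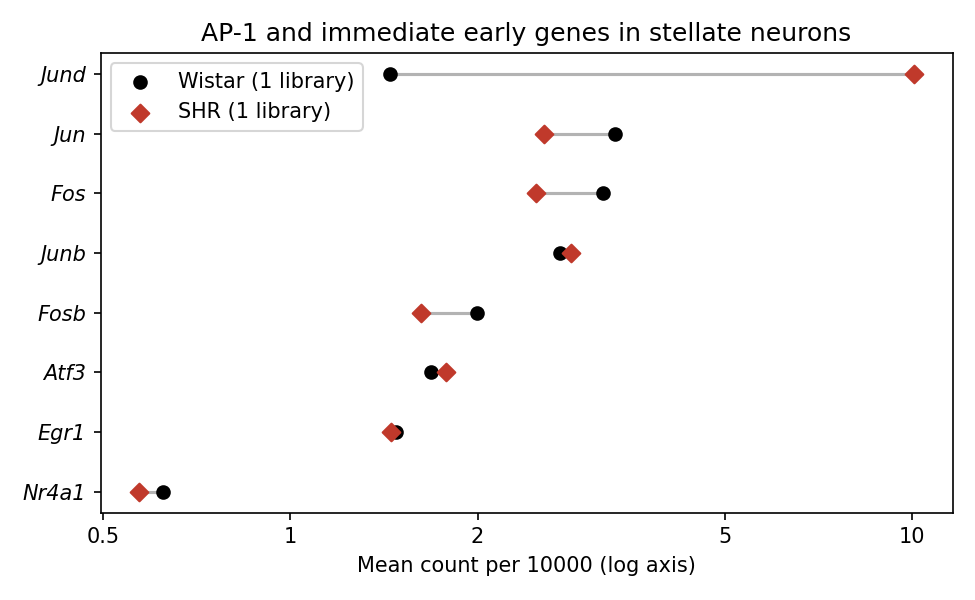
Mean count per 10000, on a log axis, of the 8 members at an average of 0.1 per 10000 or more, in Wistar (black circles) and SHR (red diamonds), 1 library each. Jund spans 1.45 to 10.1, whereas in each other gene the symbols lie close together.

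To place these values among all genes, differences were taken on the deposited scale and printed as the log2 of 1 plus the mean per 10000, SHR minus Wistar. The added 1 shrinks the differences of low genes. A gene was counted as past the size rule when its natural log difference was at least 0.25 (0.36 as log2), among the 7621 genes with an average level of 0.1 per 10000 or more. By this rule 274 genes (3.60%) were higher and 390 (5.12%) lower in SHR. With the median difference set to 0, the counts were 365 and 289. Of the 8 members at that minimum, 1 was past the size rule as higher, which is Jund, and 0 as lower. Because Jund was picked on this contrast, nothing is read from that count.

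Jund had the highest log2 difference of the 7621 genes, 2.18. The next was S100a6, a calcium-binding protein gene, at 1.53, followed by LOC100364435 at 1.08, Lgals3 at 1.07, Rgs10 at 0.92 and Cox7c at 0.92. These are the 5 genes whose difference lay nearest to that of Jund, and S100a6 was 0.65 below it. Likeness here rests on 1 difference between 2 libraries, so it is a weak description. The place of Jund depended on how low genes were weighted. It stood first with a pseudocount of 0.1 as well, 4th with 0.01 and 3rd with 10, and first in the rescalings tried.

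The 7 other members lay within the bulk of genes. Their log2 differences ran from -0.28 for Jun and -0.27 for Fos, through -0.19 for Fosb, -0.048 for Nr4a1 and -0.016 for Egr1, to 0.044 for Junb and 0.051 for Atf3. Their median was -0.048, beside a median of -0.052 over all 7621 genes. Among genes with an average of 1 per 10000 or more, these medians were apart. The members other than Jund then had a median of -0.10, beside 0.038 over all 1676 genes. Of the 7 genes, 5 were lower in SHR, as were 65.6% of all genes, although Egr1 and Nr4a1 turned to slightly higher when the median difference was set to 0, and Egr1 also when the total was taken without ribosomal protein and mitochondrial genes. Together the members other than Jund summed to 15.0 per 10000 in Wistar and 13.3 in SHR.

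**Figure D3:**
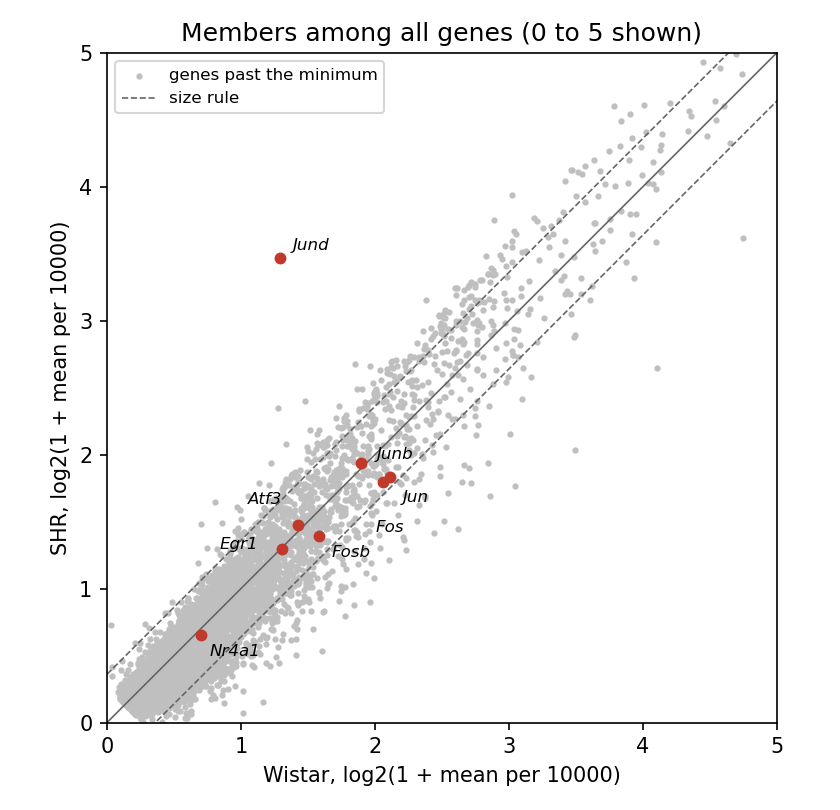
Level in SHR against level in Wistar, each as log2 of 1 plus the mean per 10000, for genes past the minimum (grey) and the 8 members (red), with dashed lines at the size rule and values up to 5 shown on both axes. Jund lies far above the upper dashed line, and the other 7 members lie between the lines.

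The related genes were taken from fixed lists. Genes of higher level passed the size rule more often. With a minimum of 1 per 10000, 264 of 1676 genes were higher and 190 lower past it. The counts of the lists also depend on the pseudocount. With a pseudocount of 0.1 per 10000 in place of 1, 794 of all 7621 genes were higher and 2432 lower. With 0.01, 1019 were higher and 2949 lower. These stand beside each list count given below at those pseudocounts. Beyond the members, 27 genes of AP-1 and related basic leucine zipper families all had a line, and 12 passed the minimum. Of these, 0 were past the size rule in either direction, and their median log2 difference was -0.047. Atf4, the translation-controlled factor of the integrated stress response, had the highest average of them, with means of 2.45 in Wistar and 2.62 in SHR. Mafg, a small Maf protein gene, had means of 1.51 and 1.01, and Creb3, a membrane-bound factor of the secretory pathway, 0.951 and 0.890. With a pseudocount of 0.1, 1 of the 12 was lower past the size, beside 2432 of the 7621 genes. With 0.01, 4 of the 12 were, beside 2949 of the 7621.

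Of 52 further immediate early genes, 34 passed the minimum, 2 were past the size rule as higher in SHR (5.88%, beside 3.60% of all genes) and 0 as lower, with a median log2 difference of -0.014. With a pseudocount of 0.1 the counts were 2 and 5. The pair was Id1, with 0.813 per 10000 in Wistar neurons and 1.81 in SHR neurons, and Id3, with 0.674 and 1.47. Id1 and Id3 encode inhibitors of basic helix-loop-helix factors and are also known as targets of BMP signalling. The highest log2 difference of the 34 genes, 0.63 for Id1, was well under that of Jund. The activity marker Npas4 stood at 0.0147 per 10000 in Wistar neurons and 0.00381 in SHR neurons, and Arc at 0.0847 and 0.133, both named after their values were seen.

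Upstream of AP-1, 20 of 30 genes of the MAP kinase cascade passed the minimum, with 1 higher (5%, beside 3.60% of all genes) and 2 lower (10%, beside 5.12%) past the size rule and a median log2 difference of -0.068. With a pseudocount of 0.1 the counts were 2 higher and 8 lower. Hras, a small GTPase gene at the head of the ERK cascade, averaged 1.60 per 10000 in Wistar neurons and 2.63 in SHR neurons. Mapk11, which encodes p38 beta, had 1.99 and 0.969, and Map2k5, the kinase that activates ERK5, had 0.812 and 0.357. Mapk3, the gene of ERK1, named after its values were seen, had means of 5.36 and 6.95 and did not reach the size rule.

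Among 17 entries for factors and coactivators that switch on immediate early genes, some of them older and newer names of one gene, 13 had a line and 5 passed the minimum. All 5 were lower in SHR, as were 65.6% of all genes, and 0 were past the size rule. Their median log2 difference was -0.14, beside -0.052 over all genes. With pseudocounts of 0.1 and 0.01, 4 of the 5 were lower past the size, beside 2432 and 2949 of all 7621 genes. The median of the 5 was then -0.56 and -0.85, beside -0.16 and -0.21 over all genes. Crebbp, the CREB-binding coactivator, averaged 0.772 per 10000 in Wistar neurons and 0.424 in SHR neurons. Mef2a, an activity-dependent factor, had 0.885 and 0.712, and Elk4, a partner of serum response factor, had 0.371 and 0.193. Of the regulators of Jun, Fos and Egr proteins, 8 of 14 entries passed the minimum and 0 were past the size rule, whereas 3 were lower past it with a pseudocount of 0.1. Men1, which encodes menin, a JunD-binding repressor, had means of 0.652 and 0.421 and was named after its values were seen. Cops5, a COP9 signalosome subunit gene, averaged 1.41 and 1.54, and Ncor1, a corepressor gene, 0.907 and 0.793.

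Downstream, the list of 17 genes described with AP-1 sites in their promoters had 9 genes past the minimum, 0 past the size rule as higher and 1 as lower (11.1%, beside 5.12% of all genes). With a pseudocount of 0.1 the counts were 2 higher and 3 lower. The lower gene on the main scale was Penk, the preproenkephalin gene, at 0.546 per 10000 in Wistar neurons and 0.0467 in SHR neurons. Th is on the same list, with 10.2 in Wistar and 10.1 in SHR. Of 15 entries for axon injury genes, 9 passed the minimum, 2 were higher past the size rule (22.2%, beside 3.60% of all genes) and 0 lower. With a minimum of 1 per 10000 the counts were also 2 and 0, beside 264 and 190 of 1676 genes. With a pseudocount of 0.1 the counts were 2 and 3. Gap43, a growth cone protein gene, had means of 13.3 and 21.5, and Tubb3, a neuronal tubulin gene, 44.8 and 58.4. Of the members known for injury, Atf3 differed by 5.71% and Jun by -23.1%.

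**Figure D4:**
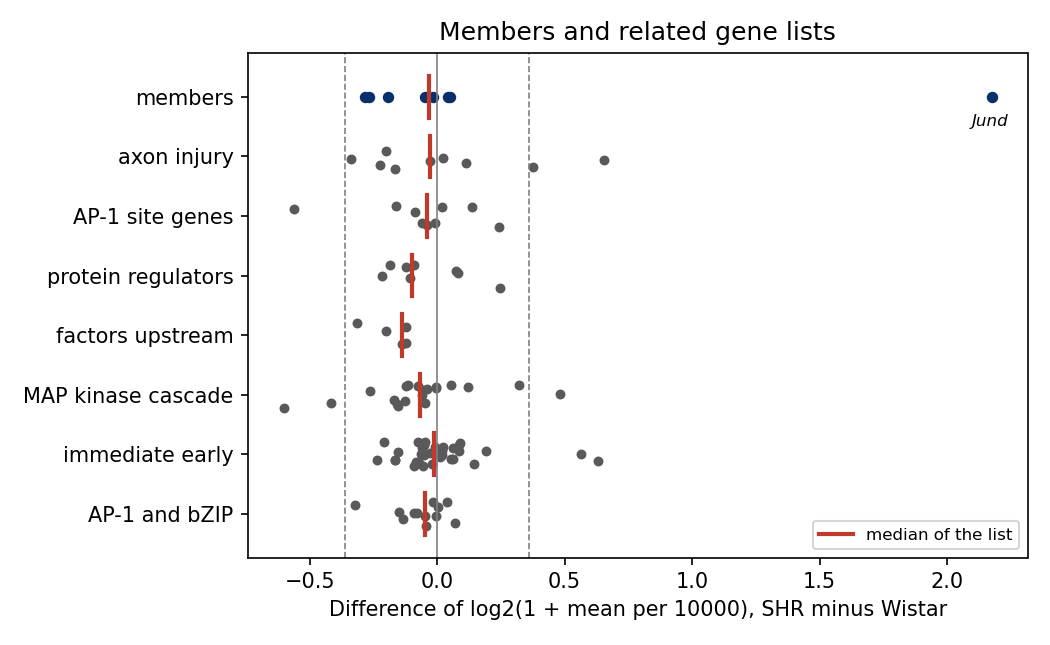
Difference of log2 of 1 plus the mean per 10000, SHR minus Wistar, for each gene past the minimum (points) in the fixed lists, with list medians (red bars) and the size rule (dashed lines); vertical scatter is for legibility. Jund at 2.18 lies apart, and each list median lies between -0.14 and 0.

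The span of a gene moved with the differences of all genes, so members were set beside genes of like span. All genes at or above the minimum were divided into 10 groups by their span in GRCr8, used only as a rank, and 95.7% of them had one. The shortest group had 72.9% of its genes higher in SHR, a median log2 difference of 0.087, and 15.8% past the size rule as higher. In the longest group 14.4% were higher, with a median of -0.12. Jund, Jun, Junb, Fos and Egr1 are all in the shortest group. Within it Jund was above the group's median, whereas Junb at 0.044, Egr1 at -0.016, Fos at -0.27 and Jun at -0.28 lay under it. The part of gene span in the Jund value was not tested.

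**Figure D5:**
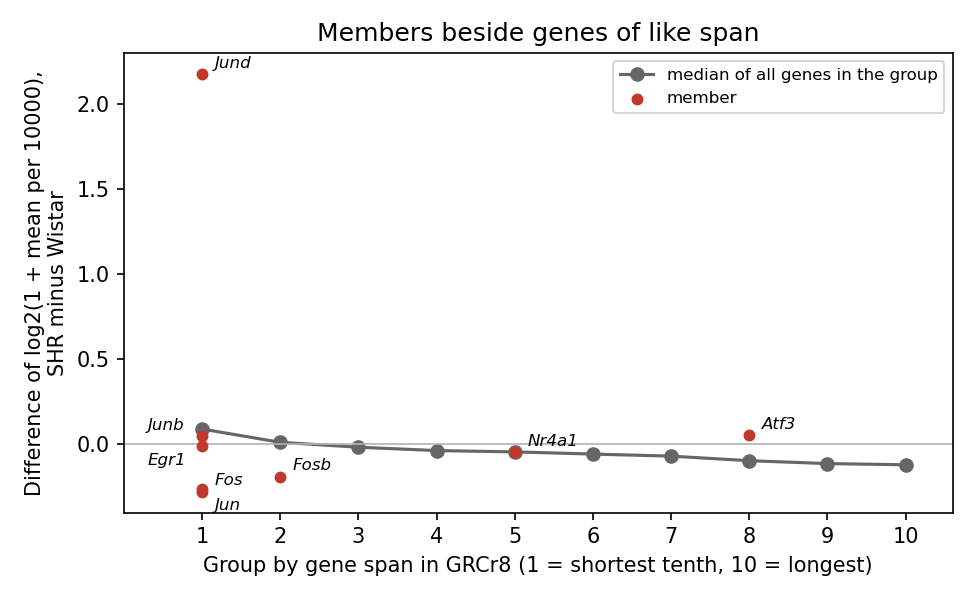
Difference of log2 of 1 plus the mean per 10000, SHR minus Wistar, against the 10 groups of genes by span in GRCr8, with the median of all genes in each group (grey) and the members (red). The medians go from 0.087 to -0.12 and the shortest group holds Jund at 2.18 as well as Jun at -0.28.

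The genes around Jund were examined because they lie in the same stretch of chromosome 16. This comparison was chosen after the values were seen. Of the 8 nearest protein-coding neighbours past the minimum, 4 on each side in GRCr8, 0 were past the size rule as higher and 2 as lower (25%, beside 5.12% of all genes). With the median difference set to 0, or with a pseudocount of 0.1, 1 neighbour was past it as higher. Lsm4, an RNA-processing gene and the next neighbour on one side, averaged 1.36 per 10000 in Wistar neurons and 2.00 in SHR neurons, with a log2 difference of 0.35, just under the size of 0.36. Rab3a, a synaptic vesicle GTPase gene and the next on the other side, had 5.08 and 5.85. Ssbp4 had 4.84 and 2.29, and Isyna1, the inositol phosphate synthase gene, 1.59 and 0.933. The highest log2 difference of the 8 neighbours was that of Lsm4, beside 2.18 for Jund.

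In the promoter table, 7 of the 10 members had a window, which are Egr1, Fosb, Fosl2, Ier2, Junb, Jund and Nr4a1. The full cAMP response element (TGACGTCA, its own reverse complement) was found in 1.59% of the 33469 windows of this length and in 2 of the 7, Jund and Ier2. In Jund it starts 221 bases before the start site. The core of that element (TGACG on either strand, counted inside full elements too) was in 18.2% of windows and in 5 of the 7, Junb among them. Of the 7, Jund alone held the octamer (ATGCAAAT, either strand), which 1.56% of windows hold. The AP-1 site (TGACTCA or its reverse complement TGAGTCA) was in 4.05% of windows and in 0 of the 7. The Egr site (GCGTGGGCG or GCGGGGGCG, either strand) was in 2.85% of windows and in 3 of the 7, and the CCAAT box (CCAAT, either strand) in 34.0% and 3. The CArG box, which serum response factor binds, was in 1.50% of windows and in 1 of the 7, Egr1, and the TATA box (TATAAA, either strand) in 12.9% and 2. A match is a run of letters and says nothing of binding in these cells.

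The labelled cell type was checked against its markers. All 12 sympathetic neuron markers passed the minimum in the averaged libraries and none was at 0. Their sums were 57.6 per 10000 in Wistar neurons and 45.0 in SHR neurons. Of the 12, 10 were lower in SHR, 6 of them past the size rule (50%, beside 5.12% of all genes), and 0 were higher past it. Satellite glia and Schwann cell markers summed to 9.47 in Wistar and 3.48 in SHR. Of the 6 that passed the minimum, 3 were lower past the size rule (50%). Fibroblast markers summed to 1.97 and 0.401, with 2 of 3 lower past it (66.7%). Immune cell markers summed to 1.35 and 0.466, with 1 of 1, and endothelial, smooth muscle and erythrocyte markers each summed to at most 0.137 in either library, with Rgs5 and Alas2 at 0 in at least 1 library. Marker sums of sympathetic neurons and of other cells alike were thus lower in the library where Jund was higher. The part of other cells in the values of the members was not tested. Leaving the markers of other cells out of the total gave a Jund difference of 2.18. That step only rescales the totals and removes no transcripts of other cells from the Jund mean, so nothing is read from it.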

How the data were processed

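The samples were 1 Wistar and 1 SHR single-cell 3′ library, grouped by the labels. Per the labels' processing notes, Cell Ranger 3.0.2, Seurat 3 and the build Rnor_6.0 were used. The authors deposited, for the neurons of each library, the natural log (ln) of 1 + m for 25399 genes, where m is the average over neurons of a gene's counts scaled to 10000 per cell. Filters on cells, doublet treatment and the number of neurons are not given in the sources used here, so depth and counting error are unknown. The authors' table of their own comparison, with fold changes, p-values and shares of cells, was not used.

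Converted back, the means sum to 10000 in each library. Names that occur more than once (4 lines) were dropped. Differences are those of the deposited logs. A minimum average of 0.1 per 10000 and a natural log difference of 0.25 set the counts. No test was made. Python 3.11.15, NumPy 2.4.6 and pandas 2.3.3 were used, and the counting was tested on simulated data. Members, lists and rules were chosen with earlier results of these data known. Named were all members with a line, list genes past the size rule (at most 4 in each direction, otherwise the 3 of highest average), and the 5 genes nearest to Jund in difference. Of the genes in the marker lists, which the rule also covers, only sums and counts are given. A gene that the rule names is not reported here. Promoters and gene spans are from RefSeq (GRCr8), which is not the build of the files. Alternatives were pseudocounts, rescalings, centring, minimums and size rules. Those for the neighbours of Jund were chosen after seeing the data.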

Additional observations from a re-analysis of the deposited data

How the results depend on the processing

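No paired analysis was possible because there is a single library of each strain, and no library could be left out. Jund was higher in SHR in each alternative that applies to it, which adds no support because Jund was chosen for this rise. Its log2 difference of 2.18 was 2.72 and 2.79 with pseudocounts of 0.1 and 0.01 per 10000, 0.81 with 10, 2.31 with mitochondrial and ribosomal protein genes left out of the total, and 2.23 with the median difference of all genes set to 0. Pseudocounts cannot change a sign. The median of the other members, -0.048, was -0.11 and -0.13 with pseudocounts of 0.1 and 0.01, beside -0.16 and -0.21 over all genes. It was -0.10 with a minimum of 1 per 10000, beside 0.038 over all genes, and 0.0045 with the median set to 0. That centring adds 0.052 to each gene by construction, and so turned Fosl2 to 0.052, Egr1 to 0.037 and Nr4a1 to 0.0045. Egr1 was 0.0087 without mitochondrial and ribosomal protein genes. The cause was not tested.

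The count of members higher past the size rule stayed at 1 in all alternatives, and that of members lower went from 0 to 1 with pseudocounts of 0.1 and 0.01 and to 3 with a size of 0.1. Over all genes, 274 higher and 390 lower became 794 and 2432 with a pseudocount of 0.1, 1019 and 2949 with 0.01, 17 and 8 with 10, 4 and 13 with a size of log2 1, and 948 and 1948 with a natural log size of 0.1. With a minimum of 1 per 10000, which 1676 genes reached, 264 were higher and 190 lower. List medians changed sign with the median set to 0 for the wider AP-1 list (0.0052), the immediate early genes (0.038), the genes with AP-1 sites (0.011) and the axon injury genes (0.026). With a minimum of 1 per 10000 they did so for the immediate early genes (0.14), the regulators (0.16) and the axon injury genes (0.023), where fewer genes remain. Depth is unknown, so how far a low mean such as that of Fosl2 can be relied on is not known.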
